A study of Mus musculus with 10 samples.

Results

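Krt4, Krt7, Krt8, Krt13, Krt18, Krt19, Mal and Psca are 8 genes of the embryonic surface layer and of simple epithelia, out of 27998 genes listed in the E16.5 libraries and 32285 in the E15.5 and E17.5 libraries. They were picked by symbol with earlier results of these libraries known: Krt13, Mal, Krt19 and Psca had already been seen to be lower in MOF cKO keratinocytes at E16.5, so the E16.5 values of the set are a description and carry no test. Each was read in 10 single-cell libraries of mouse embryonic total backskin as counts per 1000000 (CPM), which are the unique molecular identifiers (UMIs, counted RNA molecules) of the gene scaled to the UMIs of the cells taken, and as the share of cells with at least 1 UMI. The cells taken, called kept cells, had over 1000 and under 6000 genes, under 10% mitochondrial UMIs, under 30 UMIs of the collagen genes Col1a1 and Col3a1, and keratin UMIs past any of 3 limits: 10 of Krt5+Krt14 (basal keratins), 20 of Krt1+Krt10 (suprabasal keratins) or 10 of Krt8+Krt18.

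The periderm is a flat, temporary layer that covers the developing epidermis and is shed before birth, and it is known to carry simple epithelial keratins on top of the stratified ones. Keratins work as pairs of a type II and a type I chain: Krt8 pairs with Krt18 in simple epithelia and in Merkel cells, the touch-sensing cells of the epidermis, Krt4 pairs with Krt13 in mucosal stratified epithelia such as that of the oesophagus, and Krt7 and Krt19 are further simple keratins. Mal is a small membrane protein of epithelial apical transport and of myelin, and Psca is a surface protein of the Ly6 and uPAR family that is found in bladder and stomach epithelium.

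MOF (gene Kat8) is the acetyltransferase of histone H4 lysine 16, and QPC (gene Uqcrq) is a subunit of respiratory complex III. Both were deleted with Krt14-Cre, which acts in keratin 14-positive epithelium and its descendants, on a mixed C57Bl/6J and CD-1 background, with littermates (wild-type or heterozygous for the floxed allele, as far as the sources say) as controls. At E15.5 the libraries were 2 controls (replicates 2 and 3) and 2 MOF cKO embryos (replicates 5 and 6, genotype MOF fl/fl with K14Cre), at E16.5 again 2 and 2 (replicates 1 and 2 of each), and at E17.5 1 control and 1 QPC cKO (QPC fl/fl with K14Cre). Embryo MOF cKO replicate 6 at E15.5 is described as a mosaic by staining for the histone mark, whereas in replicate 5 the epithelium was reduced for it throughout.

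Kept cells numbered 2489 and 2803 in the E15.5 controls against 964 and 1535 in MOF cKO, 197 and 522 in the E16.5 controls against 31 and 36 in MOF cKO, and 1796 in the E17.5 control against 1112 in QPC cKO. Median depth was between 11811 and 25164 UMIs per kept cell, and the whole libraries held 13609345 to 203392303 UMIs. Kat8 stood at 13.2 and 14.0 CPM in the E15.5 controls against 13.1 and 10.4 in MOF cKO, and at 19.9 and 14.9 against 8.60 and 3.06 at E16.5. These are 3′ counts, and whether they cover the deleted part of Kat8 was not tested. The Kat8 values of neither stage therefore check the labels. Those of E16.5 MOF cKO also rest on few UMIs, since its kept cells held only 581731 and 653791 UMIs of all genes. Uqcrq stood at 133.1 in the E17.5 control and 36.9 in QPC cKO. The E17.5 libraries share 1702 barcodes, 20.7% of the smaller one, against at most 0.746% for any other pair within a stage. The shared barcodes had a median of 45843 UMIs in the deeper and 623 in the shallower library, and 49 kept cells of the control and 9 of QPC cKO were among them, so the E17.5 values below were also taken without them.

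In the genome (mm10) the genes form 2 neighbouring sets and 2 single genes. The type II genes Krt7 (chr15:101411043-101430313, plus strand), Krt4 (chr15:101918535-101924735, minus strand) and Krt8 (chr15:101996698-102004482, minus strand) lie in 1 stretch of chromosome 15 with Krt18 (chr15:102028180-102032027, plus strand), the only type I gene there, 23.7 kb from Krt8. Krt13 (chr11:100117327-100121566) and Krt19 (chr11:100140810-100148665), both on the minus strand, are 19.2 kb apart on chromosome 11. Psca is at chr15:74714839-74717069 (plus strand) and Mal at chr2:127633226-127656695 (minus strand).

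Promoter sequences are shown for the 2 keratins used to find the Merkel-like cells, and for Krt13 and Krt7, which part in the E15.5 libraries as described below. Each line gives the 250 bases before a RefSeq transcript start (mm10), 5′ to 3′ on the gene's strand, with capitals at every match to 4 words searched on both strands: CACCC as in Klf sites, then TGANTCA of AP-1, then ATAAAAG as a TATA-like word, then AACCGGTT of grainyhead factors. RefSeq windows were matched for 5 of the 8 genes.
Krt13 (chr11:100121567-100121816): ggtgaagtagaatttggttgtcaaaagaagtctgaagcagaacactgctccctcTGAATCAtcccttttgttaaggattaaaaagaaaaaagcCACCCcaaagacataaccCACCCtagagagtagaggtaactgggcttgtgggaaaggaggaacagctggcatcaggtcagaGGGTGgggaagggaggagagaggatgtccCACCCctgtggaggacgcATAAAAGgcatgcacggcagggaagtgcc
Krt7 (chr15:101412153-101412402): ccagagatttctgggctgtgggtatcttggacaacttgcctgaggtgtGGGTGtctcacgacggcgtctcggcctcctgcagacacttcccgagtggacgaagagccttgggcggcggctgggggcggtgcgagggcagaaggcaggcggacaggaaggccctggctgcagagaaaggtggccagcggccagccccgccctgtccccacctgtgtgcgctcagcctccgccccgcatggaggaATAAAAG
Krt8 (chr15:102004343-102004592): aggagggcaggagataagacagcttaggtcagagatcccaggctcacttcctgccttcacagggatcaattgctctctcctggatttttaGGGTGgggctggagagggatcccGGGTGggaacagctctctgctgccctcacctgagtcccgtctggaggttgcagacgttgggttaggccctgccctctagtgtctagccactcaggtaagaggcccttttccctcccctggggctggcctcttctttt
Krt18 (chr15:102027966-102028215): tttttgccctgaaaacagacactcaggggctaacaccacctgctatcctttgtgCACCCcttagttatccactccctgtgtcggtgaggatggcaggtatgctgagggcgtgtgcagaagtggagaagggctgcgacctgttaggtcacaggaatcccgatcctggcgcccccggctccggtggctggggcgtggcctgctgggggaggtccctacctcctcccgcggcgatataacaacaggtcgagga
The Krt13 window shown held 4 CACCC words, 1 TGANTCA whose first base is 196 bases before the start, and 1 ATAAAAG at 29 bases. RefSeq has a second Krt13 start, whose window (chr11:100120578-100120827, not shown) held 2 TGANTCA, 1 CACCC and no ATAAAAG. The Krt7 window held 1 CACCC and 1 ATAAAAG at 7 bases before the start, Krt8 held 2 CACCC and Krt18 1, and the window of Mal held none of the 4 words. Of 32841 such windows, 52.0% hold CACCC, 6.75% TGANTCA, 4.84% ATAAAAG and 0.116% AACCGGTT, so single CACCC words are common. A match is a run of letters and not a measured binding site.

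At E16.5, Krt13 and Psca came mostly from single barcodes rather than from a level shared by many cells. Krt13 was at 28.1 and 61.8 CPM in kept cells of the E16.5 controls against 0 and 1.53 in MOF cKO. At E15.5 it was at 0.0241 and 0.0367 against 2.01 and 0, and at E17.5 at 0.212 (control) against 0.148 (QPC cKO). The high libraries were thus both E16.5 controls and, at a far lower level, 1 of 2 E15.5 MOF cKO libraries.
Psca was at 29.2 and 52.5 against 0 and 3.06 at E16.5. At E15.5 it was at 0 in both controls against 6.96 and 0.0961, and it had no UMI in kept cells of either E17.5 library. Psca was high in the same 3 libraries as Krt13, and at E16.5 the groups did not overlap for either gene, as they did not for 68.0% of all genes with at least 100 UMIs in kept cells.
Krt4 was at 1.95 and 13.8 against 0 and 1.53 at E16.5, at 0.266 and 0.0551 against 13.3 and 0.256 at E15.5, and at 2.97 against 0.221 at E17.5. Mal was at 17.2 and 40.2 against 3.44 and 0 at E16.5, at 0.580 and 0.680 against 22.3 and 0.545 at E15.5, and at 1.89 against 0.111 at E17.5. As for Krt13 and Psca, the highest E15.5 value of each belonged to MOF cKO replicate 5, and the E15.5 groups overlapped for Krt4, Krt13 and Mal.
Krt19 was at 11.7 and 55.1 against 0 and 4.59 at E16.5, at 0.652 and 0.367 against 11.8 and 0.641 at E15.5, and at 0.212 against 0.517 at E17.5. Krt7 was at 47.9 and 113.1 against 3.44 and 41.3 at E16.5, at 5.46 and 3.97 against 39.1 and 5.51 at E15.5, and at 7.45 against 22.5 at E17.5. Krt7 had UMIs in kept cells of every library, and MOF cKO held the highest E15.5 but the lowest E16.5 value.
Krt8 was at 5.07 and 23.3 against 0 and 0 at E16.5, at 12.9 and 8.76 against 3.66 and 3.08 at E15.5, and at 10.0 against 84.6 at E17.5. Krt18 was at 2.34 and 11.4 against 6.88 and 7.65 at E16.5, at 10.7 and 10.7 against 5.78 and 4.55 at E15.5, and at 4.08 against 25.3 at E17.5. Since Krt8 and Krt18 UMIs let cells through the third keratin limit, their levels in kept cells follow in part from how those cells were taken. The kept cells of E16.5 MOF cKO held only 581731 and 653791 UMIs, against 2565496 and 7384875 in the controls. In MOF cKO replicate 1, 2 Krt7 UMIs made 3.44 CPM, and members other than Krt7 had at most 5 UMIs in either MOF cKO library. Their E16.5 MOF cKO values are therefore near the floor.

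**Figure D1:**
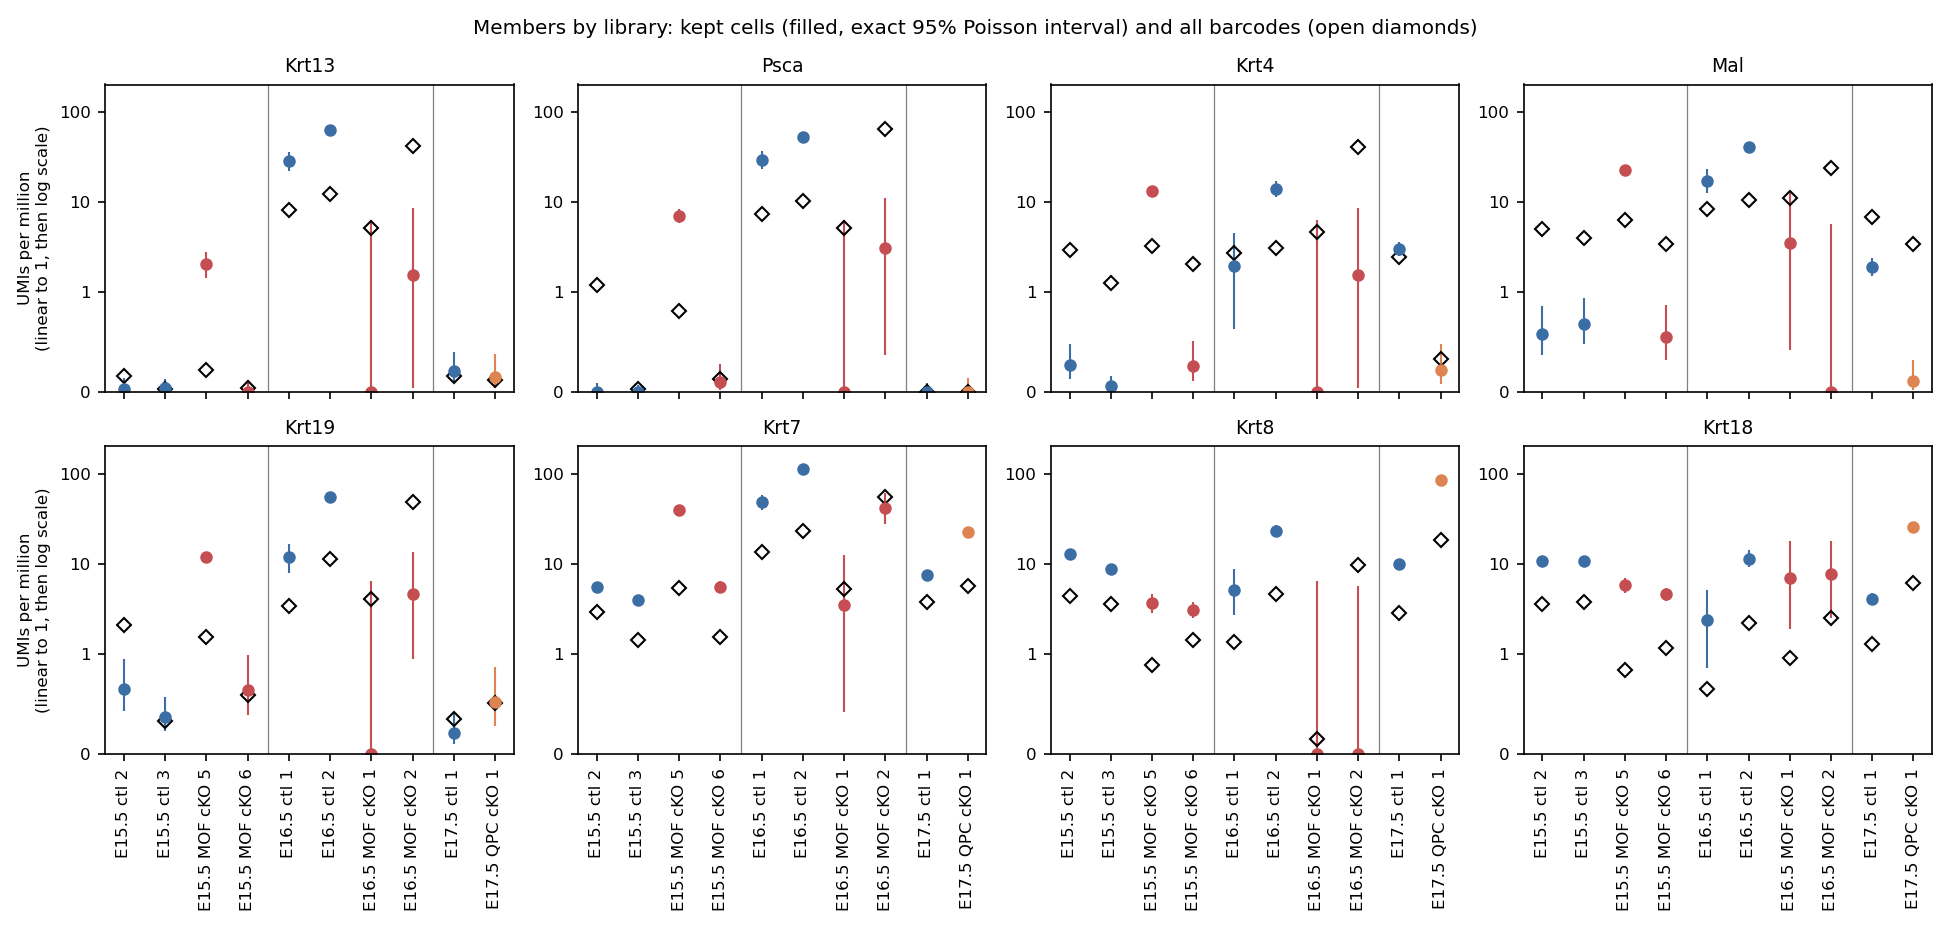
CPM of the 8 genes in each library (linear to 1 and logarithmic above), in kept cells (filled points with exact 95% Poisson intervals, counting error only) and over all barcodes (open diamonds). At E16.5 the filled points of Krt13 are 28.1 and 61.8 (controls) against 0 and 1.53 (MOF cKO), whereas the diamonds are 8.10 and 12.2 against 5.07 and 41.2.

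Barcodes with at least 10 UMIs of Krt13+Psca, here Krt13/Psca barcodes, numbered 8 in all: 2 in E16.5 control replicate 1, 1 each in E16.5 control replicate 2, both E16.5 MOF cKO libraries, E15.5 control replicate 2 and both E15.5 MOF cKO libraries, and none in E15.5 control replicate 3 or at E17.5. The limit was set after the values had been seen, and the next highest barcode held at most 7 Krt13+Psca UMIs in any library. At E16.5 these barcodes held 85.8% to 95.7% of all Krt13+Psca UMIs of their library, and at E15.5 91.5% in control replicate 2, 91.6% in MOF cKO replicate 5 and 54.5% in replicate 6. E15.5 control replicate 3 and the E17.5 control and QPC cKO had 12, 31 and 24 Krt13+Psca UMIs in all, with at most 4, 6 and 7 in any barcode. The E16.5 levels of both genes in kept cells therefore rest on 1 barcode per control library.
All 8 genes were present in 7 of the 8 barcodes, and the 8 genes made up between 2.46% and 10.9% of a barcode's UMIs. The largest, in E16.5 MOF cKO replicate 2, had 47540 UMIs with 771 of Krt13, 1204 of Psca, 758 of Krt4, 401 of Mal, 885 of Krt19, 968 of Krt7, 159 of Krt8 and 41 of Krt18. That of E16.5 control replicate 2 had 31387 UMIs with 442 of Krt13, 376 of Psca, 99 of Krt4, 289 of Mal, 390 of Krt19, 745 of Krt7, 45 of Krt8 and 12 of Krt18. That of E15.5 MOF cKO replicate 5 had 19504 UMIs, with 39 of Krt13 and 135 of Psca but 400 of Mal and 247 of Krt4. The E16.5 MOF cKO replicate 1 barcode, with 6250 UMIs, had 67 of Krt13, 66 of Psca and no UMI of Krt8.
Other genes were shared by these barcodes. Krt15 and Krt6a had UMIs in all 8, with 1046 and 499 in E16.5 control replicate 2, 1150 and 604 in E16.5 MOF cKO replicate 2 and 487 and 125 in E15.5 control replicate 2. Krt6a, a keratin known from periderm and from wounded epidermis, thus stood beside low counts of the basal keratins, between 1 and 51 Krt5+Krt14 UMIs per barcode. Presence of Krt15 alone does not set these barcodes apart. Outside them it averaged 3987 CPM in E16.5 control cells with at least 10 Krt5+Krt14 and under 20 Krt1+Krt10 UMIs. Msln, Upk1b and Upk3b, genes of mesothelium and of bladder umbrella cells, also had UMIs in all 8, with 204, 291 and 105 in the largest barcode, but Wt1 and Lrrn4, the other listed mesothelial markers, were at 0 in all 8.
The Merkel and melanocyte lists had no UMI in any of the 8 barcodes, and the endothelial list had 1 UMI in 1 of them. Fibroblast genes had at most 14 UMIs, Schwann genes at most 8, immune genes at most 3 and muscle genes at most 1. Of the 8 listed genes of periderm formation, 5, 5 and 4 had UMIs in the E15.5 barcodes (19, 24 and 6 UMIs in all) and 0 to 4 in the E16.5 ones (at most 7 UMIs), while tight junction genes had UMIs for 3 to 11 of 15, with Cldn1 and Cldn4 in all 8. Of other listed stratified keratins, Krt17 had 44 UMIs in the barcode of E15.5 control replicate 2 and at most 1 in any other. Krt16 had at most 1 UMI and Krt6b at most 5. These barcodes were chosen for their Krt13 and Psca UMIs, so those counts are fixed by the choice and cannot bear on the label periderm. The label comes from the member list. Krt6a is not particular to these barcodes, since it was also high in kept E16.5 MOF cKO cells. Whether the barcodes are periderm was not tested. The listed formation genes were at low counts, and Krt16, Krt17 and Krt6b were at or near 0 in most.

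Where these barcodes fell among the cell limits set the group values. In the E16.5 controls, 1 was kept in each library, that of replicate 1 (3200 UMIs) through its 11 Krt8+Krt18 UMIs alone. In E16.5 MOF cKO neither was kept: that of replicate 2 passed the keratin limits but had 32 Col1a1+Col3a1 UMIs against a limit of 30, and that of replicate 1 passed none of the keratin limits. The second barcode of E16.5 control replicate 1 (3905 UMIs) was likewise left out. At E15.5 the barcode of control replicate 2 had 6321 genes, that of MOF cKO replicate 6 had 25.2% mitochondrial UMIs, and that of MOF cKO replicate 5 was kept.
Over all barcodes of a library, Krt13 at E16.5 was at 8.10 and 12.2 CPM (controls) against 5.07 and 41.2 (MOF cKO), and Psca at 7.28 and 10.3 against 5.14 and 63.6. Krt4 was at 2.70 and 3.05 against 4.63 and 40.9, and Krt19 at 3.35 and 11.4 against 4.04 and 47.9. In these totals the groups overlapped for Krt13, Psca and Krt19, with the highest and, for Krt13 and Psca, the lowest value in MOF cKO. For a total over all barcodes, fewer cells of a type and less RNA per cell cannot be told apart.

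**Figure D2:**
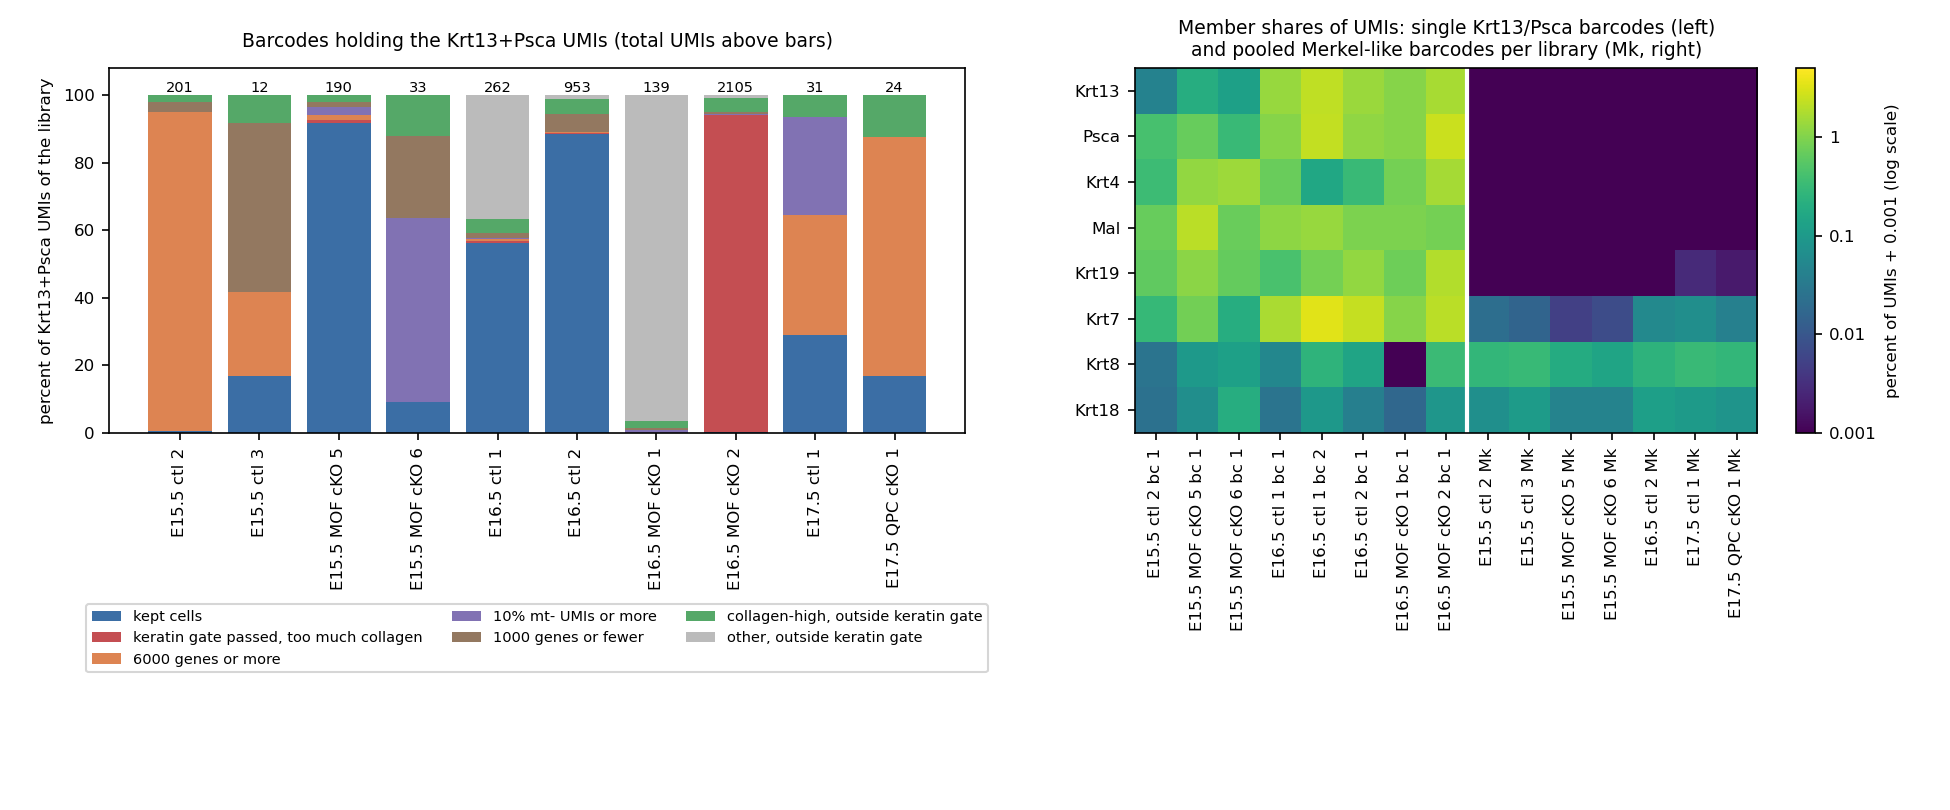
Left, the percentage of each library's Krt13+Psca UMIs in kept cells and in barcodes left out for each reason, with the total UMIs above the bars; right, the percentage of a barcode's UMIs from each gene (logarithmic colour scale after adding 0.001) for the 8 single Krt13/Psca barcodes and for pooled Merkel-like barcodes per library. E16.5 MOF cKO replicate 2 has 2105 Krt13+Psca UMIs, the most of any library, and 3 of them are in kept cells.

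At E16.5, edgeR fits over 8955 genes of kept cells gave log2 fold changes (MOF cKO over control) of -5.27 for Krt13, -4.15 for Psca, -3.65 for Mal, -3.36 for Krt19, -1.37 for Krt7 and 0.44 for Krt18, given as a description since the genes were chosen with this contrast known. Krt4 and Krt8 did not pass the filter on low counts, and 252 genes (2.81%) were called in the same fit. Krt13, Psca, Mal and Krt19 passed this filter through the controls alone, so their direction was fixed by it. The sign also turned on the Col1a1+Col3a1 limit. With no such limit the fitted changes were 3.99 for Krt13, 4.80 for Psca, 3.64 for Mal, 4.51 for Krt19 and 3.51 for Krt7. With the limits scaled to each cell's UMIs per 10000 they were 3.46, 4.29, 3.10, 4.21 and 3.08 in the same order.
Without the Krt13/Psca barcodes, Krt13 in kept cells at E16.5 was at 0.390 and 1.90 CPM (controls) against 0 and 1.53 (MOF cKO), and Psca at 0.390 and 1.63 against 0 and 3.06. Mal was then at 0.390 and 1.09 against 3.44 and 0, and Krt19 at 1.17 and 2.31 against 0 and 4.59. The groups overlapped for all 4 genes, none of which then passed the filter on low counts. Krt7 was at 5.85 and 12.2 against 3.44 and 41.3, with a fitted change of 1.73 in place of -1.37. The 41.3 rests on 27 UMIs in 5 cells.
Cells with much collagen and no keratin pass, which should lack these genes, held Krt7 UMIs in 1.07% and 3.85% of cells (E16.5 controls) against 0.193% and 5.70% (MOF cKO), at median depths of 9754 to 12467 UMIs against 11811 to 16830 in kept cells. Among the E16.5 libraries this background was highest in replicate 2 of each group, and the E16.5 shares of kept cells with Krt7, 6.60% and 8.24% (controls) against 6.45% and 13.9% (MOF cKO), are to be read against it. Krt19 had a background of 2.45% in control replicate 2 and 4.94% in MOF cKO replicate 2, against 3.26% and 8.33% of kept cells.

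At E15.5, Krt7 was high in MOF cKO replicate 5 outside the single barcode as well. It had UMIs in 4.66% and 4.71% of control cells against 27.6% and 8.14% of cells in MOF cKO replicates 5 and 6. With every cell thinned to 5000 UMIs the shares were 2.26% (95% Wilson interval 1.74% to 2.92%) and 1.62% (1.21% to 2.16%) against 12.1% (10.2% to 14.3%) and 2.51% (1.83% to 3.42%), leaving out 11 and 18 control and 22 and 19 MOF cKO cells under that depth. Collagen-rich cells outside the limits held Krt7 UMIs in 0.0229% and 0.103% of control and 0.0687% and 0.108% of MOF cKO cells, at median depths of 11211 to 13222 UMIs against 15525 to 19605 in kept cells. The share in MOF cKO replicate 5 thus stood apart from the other 3 libraries, and the interval of replicate 6 overlapped those of both controls after thinning.
Among cells with at least 10 Krt5+Krt14 UMIs and under 20 Krt1+Krt10 UMIs, here Krt5/Krt14 cells, Krt7 was at 3.91 and 3.18 CPM (controls) against 45.4 and 6.12 (MOF cKO). In the remaining kept cells with at least 20 Krt1+Krt10 UMIs it was at 16.1 and 6.42 against 10.7 and 1.48. Replicate 5 thus stood apart in Krt5/Krt14 cells, while the groups overlapped in the Krt1/Krt10 cells. Without the Krt13/Psca barcode, Krt7 in kept cells of replicate 5 was still at 31.0. Of its 266 Krt7-positive cells, 6.77% also had Krt18, 1.13% Krt8 and 0.376% Krt13. Of its 961 kept cells outside the barcodes with 10 Krt8+Krt18 UMIs, 63 had Krt18, a similar share, and 5 had Krt8.
With edgeR's quasi-likelihood test on UMIs summed per library, Krt7 changed by 2.54 ± 1.04 (log2, SE, 2 libraries against 2) in kept cells with an adjusted p of 0.554, Krt19 by 3.92 ± 1.51 with 0.554 and Mal by 4.49 ± 1.77 with 0.554, so none passed. With DESeq2 Krt19 passed (adjusted p 0.0424, and 0.00550 in Krt5/Krt14 cells), whereas Krt7 (0.0902) and Mal (0.396) did not. In this fit 0 of 14290 genes (0%) passed, while 1135 had an unadjusted p under 0.05 and DESeq2 called 103. Ranges of the groups did not overlap for 50.0% of all genes with at least 100 UMIs. Without the Krt13/Psca barcode the changes were 2.24 ± 0.94 for Krt7 (adjusted p 0.554), 0.29 ± 0.46 for Krt19 (0.767) and 0.99 ± 0.71 for Mal (0.577).
The library decided these values. In Krt5/Krt14 cells, where 0 of 13990 genes (0%) passed with both MOF cKO libraries, 1159 had an unadjusted p under 0.05 and DESeq2 called 105, Krt7 changed by 3.18 ± 1.09 with an adjusted p of 0.545. With MOF cKO replicate 5 as the lone cKO library Krt7 changed by 4.05 ± 0.12 (adjusted p 8.58e-06), and with replicate 6 alone by 0.80 ± 0.18 (adjusted p 0.0453), both fits of edgeR taking the lone library to vary as the controls do. Those fits called 7668 of 14781 and 1110 of 14660 genes. In kept cells the same fits gave 3.39 ± 0.19 (adjusted p 0.00511) and 0.23 ± 0.23 (0.606).
Krt8 and Krt18 were tested only in cells taken without the Krt8+Krt18 limit. There Krt8 was on average at 3.83 CPM in the 2 controls against 2.0 in MOF cKO, a change of -0.76 ± 0.56 with an edgeR adjusted p of 0.583, and Krt18 at 8.45 and 4.85, a change of -0.62 ± 0.28 with 0.556. Neither passed. In kept cells at E15.5 the median log2 change was 2.29 for the muscle list (5 of 5 genes positive), 1.18 for the endothelial list (4 of 5), 0.58 for the Schwann list (5 of 5) and -0.57 for the 7 tested Merkel genes (0 positive), with 0 genes called in each, and their part in the member values was not tested.

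**Figure D3:**
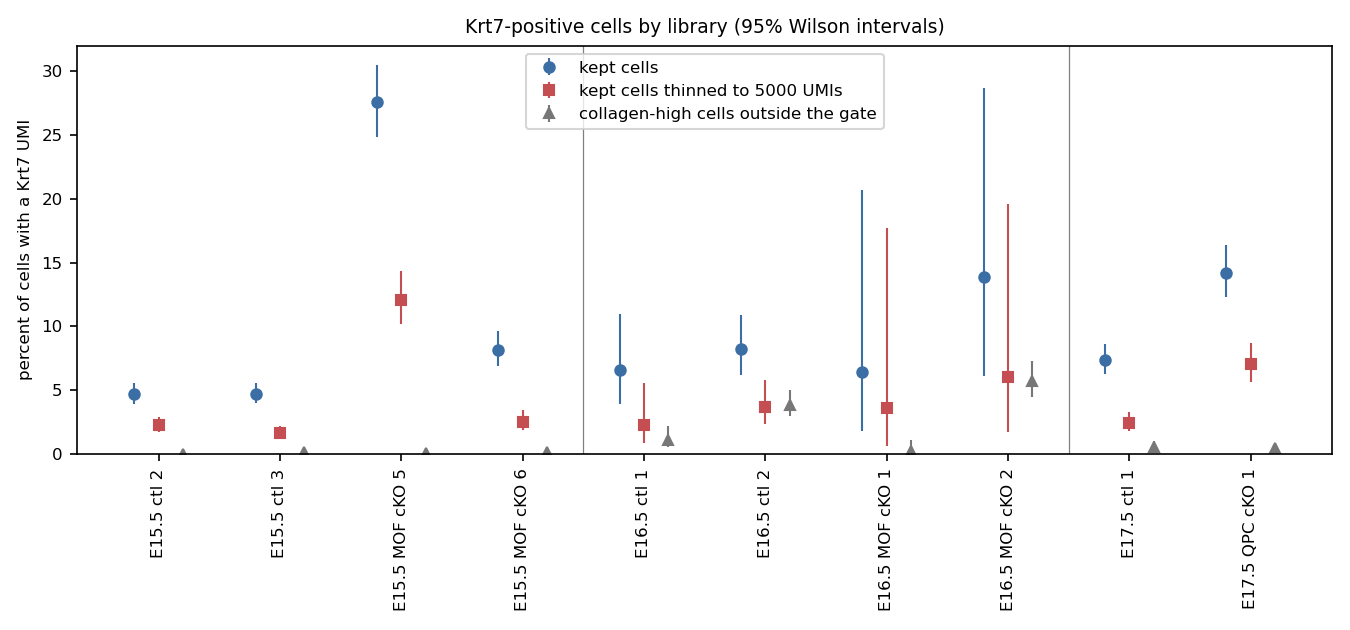
Percentage of cells with at least 1 Krt7 UMI in each library, in kept cells, in kept cells thinned to 5000 UMIs each and in collagen-rich cells outside the keratin limits, with 95% Wilson intervals that cover counting error only. E15.5 MOF cKO replicate 5 stands at 27.6% before and 12.1% after thinning, above the other E15.5 libraries at 4.66% to 8.14% and 1.62% to 2.51%.

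Krt8 and Krt18 were found together in cells that carried genes of Merkel cells, and Krt18 also outside them. Barcodes with at least 10 Krt8+Krt18 UMIs that also had UMIs of at least 3 of 11 Merkel genes, called Merkel-like here (the limit of 3 was set after the values had been seen), numbered 15 and 13 in the E15.5 controls and 2 and 3 in MOF cKO. At E16.5 the controls held 0 and 3 against none in either MOF cKO library, and at E17.5 7 in the control and 50 in QPC cKO. As shares of barcodes within the gene and mitochondrial limits these were 0.179% (95% Wilson interval 0.108% to 0.295%) and 0.143% (0.0834% to 0.244%) in the E15.5 controls. In E15.5 MOF cKO they were 0.0197% (0.00539% to 0.0716%) and 0.0282% (0.00958% to 0.0828%). At E17.5 they were 0.131% (0.0634% to 0.270%) against 0.817% (0.621% to 1.08%). The intervals of the 2 E15.5 groups narrowly do not overlap, at 0.0834% and 0.0828%. They cover counting error within a library and not the spread between embryos, so this is no test of the groups. Kept cells made up 29.65% and 30.74% of the barcodes within the gene and mitochondrial limits at E15.5 (controls) against 9.47% and 14.41% (MOF cKO). Of the E15.5 Merkel-like barcodes, 14 and 12 (controls) against 2 and 2 (MOF cKO) were kept cells. As shares of kept cells the E15.5 values were 0.563% (0.335% to 0.942%) and 0.428% (0.245% to 0.747%) against 0.208% (0.0569% to 0.753%) and 0.130% (0.0357% to 0.474%), with intervals of the 2 groups that overlap, and those at E17.5 were 0.390% (0.189% to 0.802%) against 4.50% (3.43% to 5.88%). At E16.5, 0 of 716 and 0 of 1363 barcodes in MOF cKO allow shares up to 0.534% and 0.281% (upper Wilson bounds), above the 0.123% of control replicate 2, so no difference was detectable there.
Merkel-like barcodes were chosen in part by these Merkel genes, so counts of the genes among them are partly fixed. At E17.5, however, all 7 (control) and all 50 (QPC cKO) barcodes with 10 Krt8+Krt18 UMIs were Merkel-like. Of the 50 barcodes in QPC cKO, Atoh1 and Sox2, transcription factors of Merkel cell formation, had UMIs in 50 each, Pou4f3 and Insm1 in 49 each, Isl1 in 45 and Krt20, the Merkel keratin of mature cells, in 25. In the E17.5 control each of these 6 genes had UMIs in all 7, Krt20 included. In E15.5 control replicate 2, Sox2 had UMIs in 13 of the 18 barcodes with the 10 Krt8+Krt18 UMIs, Atoh1 in 12 and Krt20 in 1. Krt20 was thus in 1 and 2 barcodes of the E15.5 controls, where Atoh1, Sox2 and Pou4f3 were in 11 to 15.
In pooled Merkel-like barcodes, whose levels of Krt8 and Krt18 follow from the limit of 10 UMIs that chose them, Krt8 was at 1417 to 3188 CPM over the 7 libraries that held any and Krt18 at 441.0 to 1230. Krt7 was there too, at 40.3 to 663.8. Krt4, Krt13, Mal and Psca had no UMI in any Merkel-like barcode, and Krt19 had 2 UMIs in the E17.5 control and 7 in QPC cKO. Krt7, Krt8 and Krt18 were thus present in both Krt13/Psca and Merkel-like barcodes. Barcodes within the gene and mitochondrial limits that had 3 or more Merkel genes but under 10 Krt8+Krt18 UMIs numbered 3 and 3 (controls) against 2 and 2 (MOF cKO) at E15.5, 1 and 2 against 0 and 0 at E16.5, and 4 against 5 at E17.5.
In the E15.5 controls kept cells held 444 and 583 Krt18 UMIs. Most lay outside the barcodes with 10 Krt8+Krt18 UMIs, 322 and 431 UMIs in 202 and 284 other kept cells. The Merkel-like barcodes, kept or not, held 115 and 148. In these other kept cells Krt18 was at 7.81 and 7.94 CPM (controls) against 4.55 and 3.15 (MOF cKO). Krt8 had 77 and 75 UMIs in the same control cells, against 471 and 439 in the Merkel-like barcodes, kept or not.
Cells kept through the Krt8+Krt18 limit alone numbered 10 and 12 in the E15.5 controls and 1 and 1 in MOF cKO, 1 and 2 against 0 and 0 at E16.5, and 5 (0.278% of kept cells) against 47 (4.23%) at E17.5. All 47 in QPC cKO and all 5 in the E17.5 control were Merkel-like, while the cell of E16.5 control replicate 1 was a Krt13/Psca barcode with no Merkel gene. With a mitochondrial limit of 5% in place of 10%, the E17.5 numbers fell to 0 of 812 and 4 of 455 kept cells, which are 0% and 0.879%. Median mitochondrial shares of these cells were 6.66% in the control and 6.64% in QPC cKO, against 5.13% and 5.28% in all kept cells. The part of mitochondrial content in the count was not tested.

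At E17.5, with 1 library a group, there is no test and values are set beside counting error. A gene was called where the ratio of CPM, each plus 1, was at least 2-fold, the Poisson intervals did not overlap and either library had at least 100 UMIs. By this rule 678 of 11824 genes (5.73%) were called in kept cells, 151 higher and 527 lower in QPC cKO (94 and 541 without cells let in by the Krt8+Krt18 limit alone, 72 and 573 with the 5% mitochondrial limit). For the 4 members with enough UMIs the ratios were 7.79 for Krt8 (10.0 against 84.6 CPM), 5.17 for Krt18, 2.78 for Krt7 and 0.308 for Krt4. These are a description, since Krt8 and Krt18 helped to choose the cells and Krt4, with 126 UMIs against 6, met the UMI minimum through the control alone. Without the cells let in by the Krt8+Krt18 limit alone, the log2 ratios were 1.098 for Krt8 in place of 2.96, 0.46 for Krt18 in place of 2.37, 0.91 for Krt7 in place of 1.48 and -1.70 for Krt4 as before, so that of these 3 higher genes Krt8 alone stayed above 2-fold. In kept cells outside the barcodes with 10 Krt8+Krt18 UMIs, Krt8 was at 1.40 against 3.27 CPM and Krt18 at 1.32 against 1.64. Without the shared barcodes the ratios were 7.60 for Krt8, 5.03 for Krt18, 2.86 for Krt7 and 0.318 for Krt4.
Genes of the Merkel list came into the kept cells largely with the same Merkel-like cells, so their ratios are a description too. Atoh1 stood at 1.84 against 34.3 CPM, a ratio of 12.4, Insm1 at a ratio of 5.84, Pou4f3 at 5.24 and Krt20 at 2.57. The UMI minimum of either library let in genes through the library in which they were high, as for Atoh1 with 78 UMIs in the control, and no count over the list is given for that reason. In Krt5/Krt14 cells, where 666 of 11590 genes (5.75%) were called, 0 of the 3 Merkel genes with enough UMIs (Sox2, Isl1 and Piezo2) were called. There Krt8 was at 4.73 against 11.1 CPM (2.11-fold), Krt7 at 5.13 against 11.8 (2.08-fold) and Krt18 at 2.40 against 3.58, below the UMI minimum. Of the Merkel-like barcodes, 2 in the control and 3 in QPC cKO also had 10 Krt5+Krt14 UMIs. All kept cells outside the barcodes with 10 Krt8+Krt18 UMIs held only 59 and 86 Krt8 UMIs. The Krt8 levels in Krt5/Krt14 cells therefore include Merkel-like cells. Of the Krt7-positive kept cells, 8.33% (control) and 32.3% (QPC cKO) also had Krt8. Merkel-like barcodes, all with Krt8, were among them: 7 of 7 (control) and 45 of 50 (QPC cKO) had Krt7. The 2 shares thus follow in part from the Krt8+Krt18 limit. In kept cells outside the barcodes with 10 Krt8+Krt18 UMIs, Krt8 was in 39 of 1789 (control) and 41 of 1062 (QPC cKO).
Markers of other cell types differed between the libraries as well, and the same UMI minimum applies to them. Median log2 ratios (QPC cKO over control) were -2.86 for 5 muscle genes, -1.70 for 5 immune genes, -1.32 for 3 endothelial genes, -0.44 for 5 fibroblast genes and -0.10 for 4 Schwann genes, beside -0.05 over all genes tested, and their part in the member ratios was not tested. Of the 126 Krt4 UMIs in kept cells of the E17.5 control, 121 (96.0%) were in 31 kept barcodes with at least 20 UMIs of the mast cell proteases Cma1 and Cpa3, and QPC cKO had 3 such kept barcodes with 2 of its 6 Krt4 UMIs. Without mast, Schwann and Krt13/Psca barcodes, Krt4 was at 0.126 against 0.155. The 80 Mal UMIs of the control likewise had 74 (92.5%) in 78 kept barcodes with at least 5 UMIs of Schwann genes, and without the same barcodes Mal was at 0.151 against 0.116. Both barcode kinds were set up after the values had been seen.
Mast and Schwann barcodes also held these genes elsewhere. Over all barcodes, mast barcodes held 53.8% to 98.8% of Krt4 UMIs in the E15.5 libraries and Schwann barcodes held 61.3% to 97.3% of Mal UMIs. Mal, a myelin protein, was at 20.4 to 204.4 CPM in Schwann barcodes of the 10 libraries. Without mast, Schwann and Krt13/Psca barcodes, Krt4 in kept cells was at 0.0187 to 0.155 CPM in the 6 E15.5 and E17.5 libraries and Mal at 0.0373 to 0.165. In these libraries Krt4 and Mal thus had little level of their own outside the 3 kinds of barcode.

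**Figure D4:**
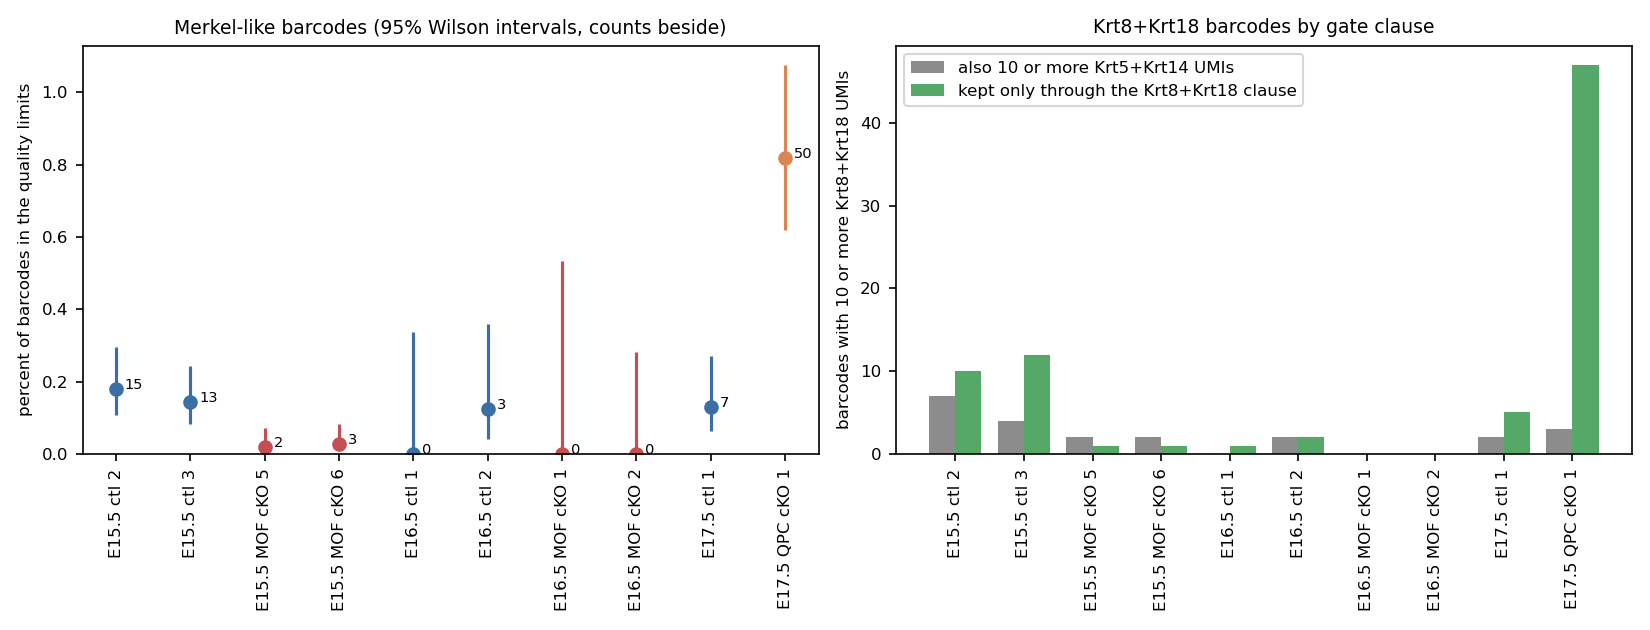
Left, Merkel-like barcodes as a percentage of the barcodes within the gene and mitochondrial limits, with 95% Wilson intervals and the number beside each point; right, the number of barcodes with at least 10 Krt8+Krt18 UMIs that also had 10 Krt5+Krt14 UMIs or were kept through Krt8+Krt18 alone. QPC cKO at E17.5 has 50 Merkel-like barcodes and 47 cells kept through Krt8+Krt18 alone, against 7 and 5 in its control.

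Across kept cells of single control libraries, Pearson r of log levels (UMIs per 10000, plus 1) for Krt8 with Krt18 was 0.501 and 0.555 in the E15.5 controls over 2489 and 2803 cells, 0.861 and 0.884 in the E16.5 controls over 197 and 522 cells, and 0.821 in the E17.5 control over 1796 cells. For Krt13 with Psca it was 0.992 and 0.843 in the E16.5 controls, each of which rests largely on 1 barcode. Krt7 went with Krt8 at r of 0.405, 0.295, 0.891, 0.545 and 0.551 in the same order. In E16.5 control replicate 1, which held no Merkel-like barcode, 1 of the 4 Krt8-positive cells also had Krt18 or Krt7, so its 0.861 and 0.891 rest on 1 cell, the Krt13/Psca barcode. Kept cells were taken in part for their Krt8+Krt18 UMIs. The r of Krt8 with Krt18 or Krt7, and the likeness to Krt8+Krt18 below, therefore follow in part from that limit. Cells of a library also share depth and source, so all these values are descriptions.
Of 11290 genes ranked by mean r over the 5 control libraries, the first 10 with Krt8+Krt18 included Syt13, Selm, Pcdh9, Pclo, Aplp1, Syt7, Gm14964, Piezo2 and Cyfip2, with mean r from 0.443 for Syt13 down to 0.320 for Cyfip2. Syt13, Pclo and Syt7 are genes of vesicle release and Piezo2 is the touch channel. The first 10 with Krt4+Krt13+Mal+Psca included Cryab, Pmp22, Gap43, Ecm1, Serpinb11, S100a1, Slc2a3, Cxcl12 and Itgb7, from 0.431 for Cryab down to 0.272 for Itgb7. Pmp22 is a myelin gene, and Gap43 ranked 1 in the E15.5 and 909 in the E16.5 controls while Serpinb11 ranked 1 there and 8545 at E15.5, so the pattern like this sum was not 1 pattern over the stages. Over the E15.5, E16.5 and E17.5 controls alone, 4, 6 and 0 of its first 10 genes stayed among the first 10, and 6, 0 and 6 for Krt8+Krt18.

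Other genes of the surface epithelium were read from lists fixed with earlier results known. At E16.5, Sfn, a cell cycle and differentiation regulator whose mutation disturbs the periderm, was the only 1 of 8 periderm formation genes called in kept cells (215 genes higher and 37 lower in all, 2.81% of those tested, or 269 and 903 with library size alone as the scaling), with means of 1304 CPM in the 2 controls and 5276 in MOF cKO and a log2 change of 2.62 ± 0.46 (edgeR, adjusted p 0.0435). Sfn had at most 2 UMIs in any E16.5 Krt13/Psca barcode, so its level came from other kept cells. Without these barcodes its control mean was 1307 CPM and its log2 change 2.61 ± 0.46. The median change of the periderm formation list was 0.93 over 8 genes, against -0.04 over all genes tested. Called genes of the simple and mucosal list were the transcription factor Elf3, from 0.864 to 13.3 (4.34 ± 0.75, adjusted p 0.0422), and Mal2, a transport protein related to Mal, from 2.66 to 20.9 (3.43 ± 0.46, adjusted p 0.0280). Both genes passed the filter on low counts, which here asked for 6.21 CPM in 2 libraries, through MOF cKO alone, so their calls had to be higher there and no count over the list is given.
Called genes of the stratified keratins were Krt6b from 0.669 to 6990, Krt16 from 29.2 to 10350 and Krt6a from 43.0 to 6094 CPM, with log2 changes of 13.61 ± 0.79, 9.15 ± 0.86 and 7.65 ± 1.0 (edgeR, adjusted p 0.00509, 0.0145 and 0.0255). Krt6a and Krt6b are near-identical copies whose reads the counting may split, so their separate values are uncertain, and Krt6b too passed the filter through MOF cKO alone, so its direction was fixed by the filter. Of the 42 and 514 Krt6a UMIs in kept cells of the controls, 38 and 499 were in the Krt13/Psca barcodes, and without these Krt6a was at 1.80 CPM on average in the controls, with a log2 change of 12.20 ± 0.78 (edgeR, adjusted p 0.00402). Krt6a was high in kept MOF cKO cells in which Krt13 and Psca were at or near 0. Of the Ly6 and uPAR family of Psca, 1 of 10 was called, Ly6a, from 7.45 to 27.2 (2.50 ± 0.40, adjusted p 0.0362).
In E16.5 Krt5/Krt14 cells 447 of 8531 genes (5.24%) were called, 342 higher and 105 lower (249 and 762 with library size alone), and only Krt7 and Krt18 of the 8 members passed the filter. Called genes of the Ly6 and uPAR family were Ly6d from 54.1 to 1785 CPM, Lypd3 from 9.50 to 177.5, Plaur from 2.57 to 26.5, Ly6a and Ly6e, the last 2 of which lost the call with library size alone (edgeR, adjusted p 0.0592 and 0.108). Sfn, Ehf, Mal2, Krt6b, Krt16 and Krt17 were higher too (Plaur, Ehf, Mal2 and Krt6b passed the filter through MOF cKO alone), and Krt15 lower, from 4056 to 324.1 (-3.19 ± 0.41, edgeR adjusted p 0.0122).
The list genes called at E16.5, 8 in kept cells and 13 in Krt5/Krt14 cells, kept their direction under every alternative in which they were tested, but not always the call. Without MOF cKO replicate 1, 0 of the 8 genes of kept cells (7 tested) and 2 of the 13 of Krt5/Krt14 cells (12 tested) were called. Without MOF cKO replicate 2 the numbers were 6 and 4, without control replicate 2 they were 3 and 9, and without control replicate 1 they were 7 and 9. Of the fibroblast, endothelial, Schwann, immune and muscle lists, 0 genes were called in either kind of cell, but their median log2 changes in kept and Krt5/Krt14 cells were 1.38 and 1.42 for 3 immune genes, 1.05 and 1.19 for 1 Schwann gene, 0.47 and 0.42 for 4 fibroblast genes, -0.85 and -0.93 for 2 and 3 endothelial genes and -2.26 and -2.45 for 1 muscle gene. The part of these cell types in the E16.5 values was not tested. Of the same lists at E15.5, 0 genes were called in kept cells. At E17.5, 0 of 8 periderm formation and 0 of 12 tight junction genes were called, and of the other list genes Mal2 was 2.33-fold, Ly6h 3.60-fold and Krt6a 5.13-fold higher in QPC cKO (Ly6h and Krt6a met the UMI minimum through QPC cKO alone), while Plaur and Krt10 stood at ratios of 0.380 and 0.496. Krt10 was no longer called without the shared barcodes, with a ratio of 0.553. Since Krt10 UMIs helped to choose the kept cells, its ratios are a description.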

How the data were processed

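Single-cell RNA was measured in 10 libraries of dissociated mouse backskin. The values are UMI counts per gene and barcode, deposited by the authors after barcode processing with Cell Ranger (1.3.1 and 6.1.2 in the submitters' processing notes) on mm10, with called cells only and no normalization. Chemistry changed with stage (3′ v2 at E16.5, later kits at E15.5 and E17.5), so stages were not tested against each other.

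Kept cells were chosen by the limits given above, and doublets were not called. The 8 genes, the gene lists and these limits were chosen with earlier results of these data known. UMIs were summed per library and tested with edgeR 4.0.16 (filterByExpr, TMM, quasi-likelihood test, Benjamini-Hochberg adjustment at 0.05) in R 4.3.3, with all genes and only the groups of that stage in the fit, and with DESeq2 1.42.0 as an alternative. The step was tested on simulated data. Named genes are the 8 members, the list genes called in a comparison and the first 10 genes by likeness to each of 2 sums of members. With 2 embryos a group, p-values measure the spread between these libraries. Poisson and Wilson intervals cover counting error only. Alternatives were the scaling, the filter, the cell limits, the thinning depth, leaving out each library, and 4 settings added after seeing the data: limits per 10000 UMIs, no collagen limit, no Krt13/Psca barcodes and no shared barcodes. Depth was 13609345 to 203392303 UMIs per library. A few of the named genes are not reported here.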

Additional observations from a re-analysis of the deposited data

Results flagged for a closer look

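In both E16.5 MOF cKO libraries, the barcode with the most Krt13+Psca UMIs lay outside the kept cells that the group values rest on, with 133 UMIs in replicate 1 and 1975 in replicate 2. The control barcodes that were kept had 71 UMIs of Krt13 and 74 of Psca in replicate 1, and 442 and 376 in replicate 2. The replicate 1 barcode had 4 Krt5+Krt14 and 1 Krt8+Krt18 UMIs and so passed no keratin limit. The replicate 2 barcode passed through its 200 Krt8+Krt18 UMIs and was left out for 32 collagen UMIs among 47540. Where the collagen UMIs of that barcode came from was not tested.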

How the results depend on the processing

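At E16.5 the number of genes called in kept cells was 252, and 1172 with library size alone (median of all genes -0.60), 640 with DESeq2, 1765 with no filter, 158 with a 5% mitochondrial limit, 466 with collagen under 10 UMIs, 1041 with limits per 10000 UMIs, 462 with no collagen limit, and 4 to 577 with a library left out, lowest without MOF cKO replicate 1. In Krt5/Krt14 cells it was 447, and 1011 with library size alone, 1679 with no filter, 257 with the 5% limit, 115 with collagen under 10 UMIs and 11 to 477 with a library left out (11 without MOF cKO replicate 1, 34 without replicate 2). At E15.5, 0 genes became 103 (kept) and 105 (Krt5/Krt14) with DESeq2, and 0 to 6501 and 0 to 7668 with a library left out, highest without MOF cKO replicate 6.

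With the replicate block at E16.5, 754 genes were called in kept cells and 519 in Krt5/Krt14 cells. The paper describes pairs of control and MOF cKO samples with littermate controls, but which libraries are littermates was not known here. Same-numbered libraries did not deviate together (r 0.00314 over 10100 genes in kept cells, -0.0684 over 9649 in Krt5/Krt14 cells). With so few libraries this cannot show whether the numbers mark pairs, so the fits with and without the block are both given. The E15.5 groups share no number.

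The E16.5 log2 change of Krt7 (-1.37) turned to 0.94 with collagen under 10 UMIs, 3.08 with limits per 10000 UMIs, 1.73 without the Krt13/Psca barcodes and 3.51 with no collagen limit. With limits per 10000 UMIs and with no collagen limit, Krt13 was 3.46 and 3.99, Krt19 4.21 and 4.51, Mal 3.10 and 3.64, and Psca 4.29 and 4.80, since the barcode of MOF cKO replicate 2 is then kept. At E15.5 Mal was -0.22 (kept) and -0.57 (Krt5/Krt14) without MOF cKO replicate 5, and 5.45 and 5.82 without replicate 6. Krt8 in E15.5 Krt5/Krt14 cells was 0.0495 without control replicate 2 and -1.22 without control replicate 3, and the cause was not tested.

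Thinned to 3000 UMIs, the E15.5 Krt7 shares were 1.65% and 1.29% (control replicates 2 and 3), 7.70% and 1.57% (MOF cKO replicates 5 and 6). Counting cells from 2 UMIs they were 0.726% and 0.287% against 3.503% and 0.330%, and Krt8 in the E17.5 control was 0.450%. With the 5% limit, cells kept through Krt8+Krt18 alone were 0% (E17.5 control), 0.879% (QPC cKO), 0.0716% and 0.0990% (E15.5 controls), 0.125% and 0% (MOF cKO replicates 5 and 6). Of the first 10 genes most like each sum, 4, 6 and 0 (Krt4+Krt13+Mal+Psca) and 6, 0 and 6 (Krt8+Krt18) stayed with the E15.5, E16.5 or E17.5 controls alone. At E17.5, 556 to 832 genes were called in kept cells against 678, but the number higher fell from 151 to 94 without the Krt8+Krt18 limit and to 72 with the 5% limit. Of the 20 alternative member ratios, 11 differed from the main ratio by more than its SE from counting, with largely the same cells in both. Without the Krt8+Krt18 limit, Krt8 went from a log2 of 2.96 to 1.098 and Krt18 from 2.37 to 0.46. With the 5% limit, Krt18 went to 1.73 and Krt7 from 1.48 to 1.15.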
